A study of Mus musculus with 24 samples.

Results

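The genes described here encode the proteasome, apart from its immune-induced subunits, together with its activators, an inhibitor and its assembly chaperones. They were taken as the protein-coding genes whose GENCODE M21 symbol begins with Psma, Psmb, Psmc, Psmd, Psme, Psmf or Psmg followed by a digit. The immunoproteasome subunits Psmb8, Psmb9 and Psmb10 were left out, and at least 10 counts in at least 3 libraries were required. Of 47 such symbols 46 met the count rule, out of 43629 genes in each file, and all 46 were tested. The exception was Psmb11, the thymic core subunit, which had at most 2 counts in a library. The 46 genes comprise 8 subunits of the outer (alpha) ring of the core, 7 of its inner (beta) ring, 6 ATPases and 11 other subunits of the cap, 5 activators, the inhibitor Psmf1 and 7 assembly chaperones. The last of the 46, Psmc3ip, is a recombination factor that shares only the letters of its symbol. Psma8, the germ cell form of an alpha subunit, passed the rule with 4 to 17 counts per library.

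RNA sequencing was performed on bone marrow-derived macrophages of wild-type C57BL/6 mice, grown from bone marrow for 7 days with CSF-1 (20 ng/mL), a macrophage growth factor that was kept in the medium during stimulation. Cells were left unstimulated or given lipopolysaccharide (LPS, a bacterial cell wall component), LPS with interferon gamma (IFNg, 50 ng/mL) or interleukin 4 (IL-4, 20 ng/mL), for 1 h or 18 h, in 8 groups of 3 libraries. The labels give LPS as 20 or 100 ng/mL without saying which group received which dose. LPS with IFNg may thus differ from LPS alone in dose as well as in IFNg. Whether the 3 libraries of a group came from separate mice or cultures is not stated, and the p-values below therefore reflect variation among libraries that may in part be technical.

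Library totals ran from 4181890 to 8122945 counts, and the 46 genes took 0.371% to 0.628% of them. Replicate 2 of LPS at 18 h and replicate 2 of IL-4 at 18 h stood apart from the others of their group over all genes. Each was the highest of its group for 41 of the 46 genes, so the counts are also given without them where they matter. Of 6 macrophage markers Adgre1, Csf1r, Cd68 and Itgam were at 761 CPM or more (counts scaled to the size of each library by TMM, explained below) in every library, while Fcgr1 ranged from 38.2 to 2267 CPM and Mertk from 13.7 to 292. Of 4 T cell markers Cd3e was at 0 in all 24 libraries, Cd3d and Cd8a had at most 1 count, and Cd4 had 6 to 46 counts. B cell markers reached at most 4 counts. Several marker lists moved at 18 h. The summed level of the 6 macrophage markers was 5242 to 5718 CPM in unstimulated cells, 11859 to 13335 in LPS, 6673 to 7185 in LPS with IFNg and 5075 to 5732 in IL-4. That of 4 proliferation markers was 806 to 999 CPM in unstimulated cells, 9.80 to 16.4 in LPS, 3.60 to 5.90 in LPS with IFNg and 444 to 461 in IL-4. Lists of other cells stayed low, with 3 endothelial markers summing to 3.73 to 5.08 CPM in unstimulated cells, 19.4 to 28.9 in LPS, 26.5 to 31.1 in LPS with IFNg and 6.68 to 11.8 in IL-4. The part of these shifts in the changes below was not tested, and in bulk samples a change in cell mixture and a change in RNA per cell cannot be told apart.

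The proteasome degrades proteins tagged with ubiquitin inside a barrel of stacked rings. The inner rings carry the active sites in Psmb5 (chymotrypsin-like), Psmb6 (caspase-like) and Psmb7 (trypsin-like), the outer rings gate the entry, and a cap with unfolding ATPases and ubiquitin receptors feeds substrates in. In place of that cap other activators can bind the barrel: Psme1 and Psme2 form a mixed ring known for its induction by interferon gamma and its part in making peptides for MHC class I, Psme3 forms a nuclear ring, and Psme4 is a large single-chain activator. During immune activation, Psmb8, Psmb9 and Psmb10 can replace the standard active-site subunits.

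Promoter sequences are shown for 5 genes that the results turn on: 3 activators and 2 active-site subunits of the core. They come from RefSeq (GRCm38.p6), run 5′ to 3′ on the gene's strand over 170 bases, from 150 before the start base, counted as 0, to 19 after it, and hold matches to 2 searched motifs in capitals.
Psme1 (chr14:55578344-55578513, plus strand): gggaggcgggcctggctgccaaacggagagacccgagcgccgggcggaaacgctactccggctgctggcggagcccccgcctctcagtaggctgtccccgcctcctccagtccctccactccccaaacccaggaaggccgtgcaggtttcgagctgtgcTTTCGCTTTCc
Psme2 (chr14:55591082-55591251, minus strand): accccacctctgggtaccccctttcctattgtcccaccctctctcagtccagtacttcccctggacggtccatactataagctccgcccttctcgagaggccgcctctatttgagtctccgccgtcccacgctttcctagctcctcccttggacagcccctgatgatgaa
Psme4 (chr11:30771625-30771794, plus strand): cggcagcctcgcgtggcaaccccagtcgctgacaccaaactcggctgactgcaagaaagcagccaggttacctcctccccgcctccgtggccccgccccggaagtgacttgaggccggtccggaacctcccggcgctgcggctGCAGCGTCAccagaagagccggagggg
Psmb5 (chr14:54617976-54618145, minus strand): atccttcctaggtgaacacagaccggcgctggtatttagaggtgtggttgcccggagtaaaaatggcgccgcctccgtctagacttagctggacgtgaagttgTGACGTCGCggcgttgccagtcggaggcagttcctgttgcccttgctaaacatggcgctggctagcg
Psmb6 (chr11:70525207-70525376, plus strand): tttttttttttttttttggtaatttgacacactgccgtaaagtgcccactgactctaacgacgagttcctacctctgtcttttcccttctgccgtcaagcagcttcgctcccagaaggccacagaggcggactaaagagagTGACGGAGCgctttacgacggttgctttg
The capitals in Psme1, TTTCGCTTTC at bases 9 to 18 after the start, match the interferon-stimulated element, searched as GAAA, any 2 bases and GAAA, on the opposite strand. The capitals in Psme4, Psmb5 and Psmb6 match the antioxidant response element core TGACNNNGC, at bases -7 to 1, -47 to -39 and -9 to -1, on the opposite strand for Psme4 and on the gene's own strand for the others. For Psme2 neither motif was found around this start, nor around its other RefSeq start, whose window overlaps this one. Over windows of 300 bases, searched on both strands, 38 of the 46 genes had an entry. The interferon-stimulated element was found in 5 of the 38 (13.2%, against 3.99% of all genes in the promoter table), namely Psme1, Psmb3, Psmd4, Psmd9 and Psmg4. The antioxidant core was found in 6 (15.8% against 14.0%), its longer form, the core followed by A, in 2 (5.26% against 3.45%), the gamma-activated site TTCNNNGAA in 2 (5.26% against 9.55%) and the CCAAT box in 13 (34.2% against 41.1%). These matches describe letters in a window and say nothing of binding.

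Levels in resting cells were compared between genes only per kilobase of transcript. In unstimulated cells at 18 h, leaving out Psma8, the core and cap subunits had mean levels from 10.6 (Psmd11) to 96.0 (Psmb5) CPM per kilobase of merged exons, and from 23.8 (Psmd11) to 181 (Psmb6) per kilobase of the principal transcript. The top of the order thus depended on which length was used. The inhibitor Psmf1 (4.71 and 7.96), the activator Psme4 (10.6 and 13.6) and the 7 assembly chaperones (2.97 to 16.2, and 9.43 to 16.8) lay at or near the bottom on both lengths. Psme1 (39.1 and 77.7) and Psme2 (61.2 and 112) were within the range of the core subunits before any stimulus.

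None of the 46 genes was called between unstimulated cells at 18 h and 1 h by edgeR's quasi-likelihood test with Benjamini-Hochberg adjustment over all 12765 genes tested, where 4% of all genes were called higher and 8.01% lower. At an unadjusted p below 0.05 there were 2 higher and 1 lower, and DESeq2 called 0, where it called 3.83% and 7.17% of all genes. The count depended on the fit: the replicate block called 1 higher and 1 lower, and library-size scaling (no correction beyond the library total) called 2 higher, where it called 7.82% of all genes higher and 5.33% lower. The same test, with a call at an adjusted p below 0.05, is used below. Fold changes are log2 with their standard error (SE), and levels are CPM scaled by TMM, which sets the bulk of genes to no change.

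Under TMM scaling, LPS for 18 h raised most of these genes. Of the 46 genes 36 were called higher and 2 lower, 78.3% and 4.35%, where 31.8% of all genes were called higher and 31.3% lower. The median log2 change of the 46 was 0.51, against 0.01 over all tested genes. The activators showed the widest changes (median 2.11, 4 of 5 called higher), followed by the core (median 0.76, 14 of 15 higher) and the cap (median 0.44, 16 of 17 higher), and none of these 37 genes was called lower (0 at an unadjusted p below 0.05). The activators include Psme2b, a near copy of Psme2 described below, and its change is their median. Their median and count thus may hold the signal of Psme2 more than once. DESeq2 called 36 of the 46 higher and 2 lower, where it called 30.4% and 30% of all genes. Under library-size scaling, where the median of all genes was -0.41, the counts were 20 higher and 10 lower, where 16.3% of all genes were called higher and 54.7% lower, with medians of 1.69, 0.33 and 0.02 for activators, core and cap. Without replicate 2 of LPS and of IL-4 at 18 h the counts were 35 and 2, and the share of all genes in that fit was not counted.

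Psme1, the alpha subunit of the interferon-induced activator, had 85.7, 89.0 and 84.3 CPM in the 3 unstimulated libraries at 18 h and 373, 478 and 339 in the 3 LPS libraries. Its partner Psme2 had 109, 104 and 111 CPM against 481, 614 and 441. All LPS libraries were above all unstimulated ones for both genes, with LPS replicate 2 highest. The fitted changes were 2.20 (SE 0.09, adjusted p = 8.06e-19, 4.59-fold) for Psme1 and 2.25 (SE 0.09, adjusted p = 1.18e-18, 4.74-fold) for Psme2. The pair lies on chromosome 14, on opposite strands with their ends facing each other and 5911 bases between them. Psme2b is a copy of Psme2 on chromosome 11 with 1 exon of 837 bases, identical over 99.4% of 794 aligned bases. It went from 6.10, 8.20 and 8.15 CPM to 31.1, 34.0 and 32.3. Its reads cannot be firmly told from those of Psme2, since 79.5% of its 25-base words also occur there. The exon of Psme2b also shares 41 bases with 9930111J21Rik1 on the same strand.

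Psme4, the single-chain activator, had 90.6, 83.1 and 91.9 CPM in unstimulated cells and 213, 186 and 205 in LPS, without overlap. Here replicate 2 was the lowest LPS library, and the change was 1.19 (SE 0.08, adjusted p = 1.41e-13, 2.28-fold). Psme3, the nuclear activator, had 91.4, 99.8 and 87.5 CPM against 99.0, 98.6 and 100 in LPS. The groups overlapped and the change was 0.10 (SE 0.06, adjusted p = 0.196), and it was -0.32 and called lower under library-size scaling. The inhibitor Psmf1 went from 30.3, 30.1 and 30.6 CPM to 33.8, 38.8 and 32.0, a change of 0.20 (SE 0.10) that was not called (adjusted p = 0.0843). Under library-size scaling it was -0.22 and called lower, and without LPS replicate 3 it was 0.26 and called higher, so its direction was not settled.

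**Figure D1:**
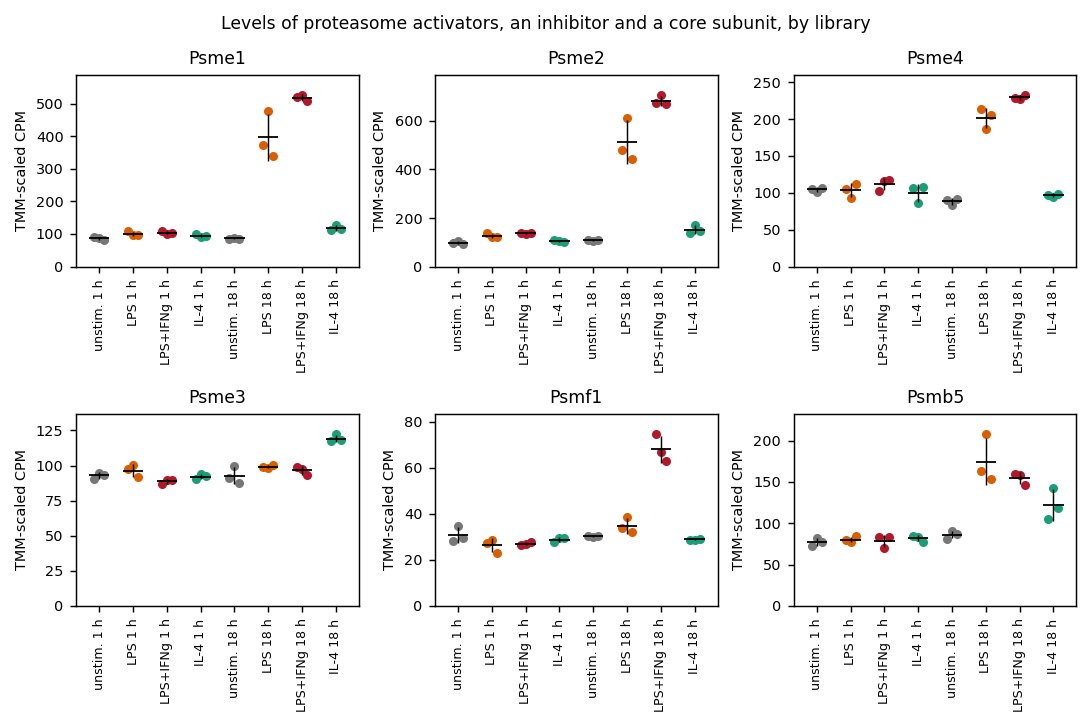
TMM-scaled CPM (y axis, linear from 0) of Psme1, Psme2, Psme4, Psme3, Psmf1 and the core subunit Psmb5 in each of the 24 libraries, by group (x axis), with points for libraries, horizontal bars for means and vertical bars for SD (n = 3). Psme1 reaches 339 to 478 in LPS and 508 to 526 in LPS with IFNg at 18 h, while Psmf1 stands apart from the other groups only in LPS with IFNg at 18 h, at 62.9 to 74.5.

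Among the active-site subunits Psmb5 had 81.1, 90.2 and 87.5 CPM in unstimulated cells at 18 h and 163, 208 and 153 in LPS, a change of 1.02 (SE 0.10, adjusted p = 7.25e-10). Psmb6 had 149, 143 and 140 CPM against 241, 340 and 241, a change of 0.93 (SE 0.09, adjusted p = 7.69e-10). Psmb7 had 98.4, 98.0 and 92.8 CPM against 138, 172 and 137, a change of 0.63 (SE 0.09, adjusted p = 3.69e-07). No library of one group reached into the other for any of the 3 genes, and replicate 2 was the highest LPS library each time. These standard subunits thus changed upward in the same libraries in which their immune counterparts did: Psmb8, Psmb9 and Psmb10 rose by 2.55, 2.45 and 2.56 on the log2 scale. In the alpha ring the widest change was that of Psma6, with 106, 102 and 102 CPM against 210, 275 and 202 (1.15, SE 0.10, adjusted p = 1.14e-11).

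Of the 7 assembly chaperones 2 were called higher and 2 lower in LPS at 18 h (28.6% each), close to the 31.8% and 31.3% of all genes. Psmd10, the chaperone of the cap's base also called gankyrin, rose from 20.0, 21.2 and 19.4 CPM to 47.5, 54.0 and 46.7 (1.29, SE 0.10, adjusted p = 2.67e-12). Psmg1 and Psmg2, which act as a pair in building the alpha ring, were both lower. Psmg2 had 18.5, 17.0 and 17.9 CPM in unstimulated cells and 9.24, 10.8 and 7.56 in LPS, a change of -0.95 (SE 0.17, adjusted p = 1.25e-05). Psmg1 had 12.0, 14.5 and 9.40 CPM against 8.0, 8.76 and 8.32, a change of -0.52 (SE 0.18, adjusted p = 0.0116) that was -0.35 and not called without replicate 2 of the unstimulated cells.

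**Figure D2:**
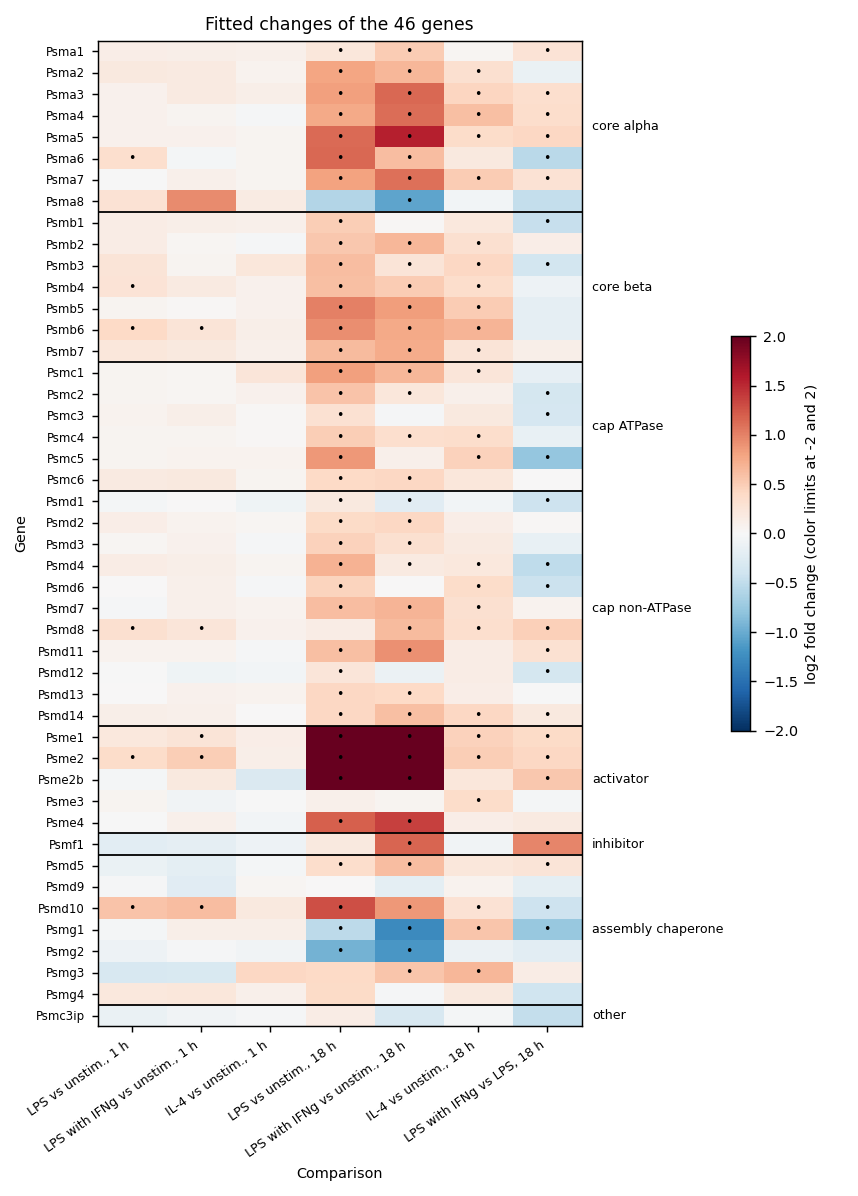
Fitted log2 changes of the 46 genes (rows, grouped by role) in 7 comparisons (columns), with red for higher and blue for lower in the group named first, colors limited at -2 and 2, and a dot where the change was called. The 1 h columns hold few dots, the LPS columns at 18 h are mostly red with Psme1, Psme2 and Psme2b at the limit, and Psmg1 and Psmg2 are blue there.

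With IFNg added to LPS for 18 h, 33 of the 46 genes were called higher than in unstimulated cells and 4 lower (71.7% and 8.70%), where 36.1% of all genes were called higher and 36.1% lower. The 4 that fell were Psmg1, Psmg2, the cap scaffold Psmd1 and the germ cell form Psma8. The median change was 2.59 for activators (4 of 5 higher, the copy Psme2b among them), 0.67 for the core (13 of 15 higher, 1 lower) and 0.34 for the cap (12 of 17 higher, 1 lower). The scaling mattered most here: with the median of all genes at -0.54 under library-size scaling, 14 genes were called higher and 19 lower (19.4% and 59.7% of all genes), and the cap went to a median of -0.19 with 1 higher and 10 lower. The medians of the activators and the core under that scaling were 2.05 and 0.13.

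Psme1 had 522, 526 and 508 CPM in LPS with IFNg at 18 h, a change from unstimulated cells of 2.59 (SE 0.09, adjusted p = 9.85e-21, 6.00-fold). Psme2 had 673, 706 and 671 CPM, a change of 2.66 (SE 0.09, adjusted p = 1.32e-20, 6.33-fold). Psme4 had 229, 227 and 233 CPM (1.37, SE 0.08, adjusted p = 2.72e-15). The 3 libraries of this group lay close together for these activators and above every unstimulated library. Psme3, at 99.2, 97.9 and 93.0 CPM, again overlapped the unstimulated cells (0.06, SE 0.06, adjusted p = 0.423) and was -0.48 and called lower under library-size scaling.

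Psmf1, the inhibitor, was at 74.5, 66.9 and 62.9 CPM with LPS and IFNg, above its 30.1 to 30.6 in unstimulated cells and its 32.0 to 38.8 in LPS. The change from unstimulated cells was 1.17 (SE 0.09, adjusted p = 1.88e-12, 2.25-fold), and it was also called under library-size scaling at 0.63. In the alpha ring Psma5 had 81.1, 76.1 and 69.9 CPM in unstimulated cells and 221, 228 and 216 with LPS and IFNg, the widest change of a core subunit (1.55, SE 0.10, adjusted p = 1.83e-14). Psmb5, Psmb6 and Psmb7 changed by 0.84, 0.75 and 0.75 (SE 0.10, 0.09 and 0.09), with adjusted p from 9.22e-09 to 2.95e-08, beside 2.53, 3.36 and 2.72 for Psmb8, Psmb9 and Psmb10.

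Both Psmg1 and Psmg2 were lower again with LPS and IFNg. Psmg1 was at 4.97, 5.31 and 4.55 CPM (-1.28, SE 0.19, adjusted p = 9.87e-07) and Psmg2 at 7.30, 8.72 and 7.95 (-1.16, SE 0.17, adjusted p = 5.01e-07), each below every unstimulated library. Psmd1 had 184, 189 and 179 CPM in unstimulated cells and 162, 152 and 158 here (-0.23, SE 0.07, adjusted p = 0.00442). Psma8, at 1.52, 2.09 and 2.66 against 0.621, 1.14 and 1.33 CPM, was called lower (-1.05, SE 0.40, adjusted p = 0.019). That call was lost without unstimulated replicate 3 (-0.85) or LPS with IFNg replicate 1 (-0.76), and in DESeq2 (-1.06).

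**Figure D3:**
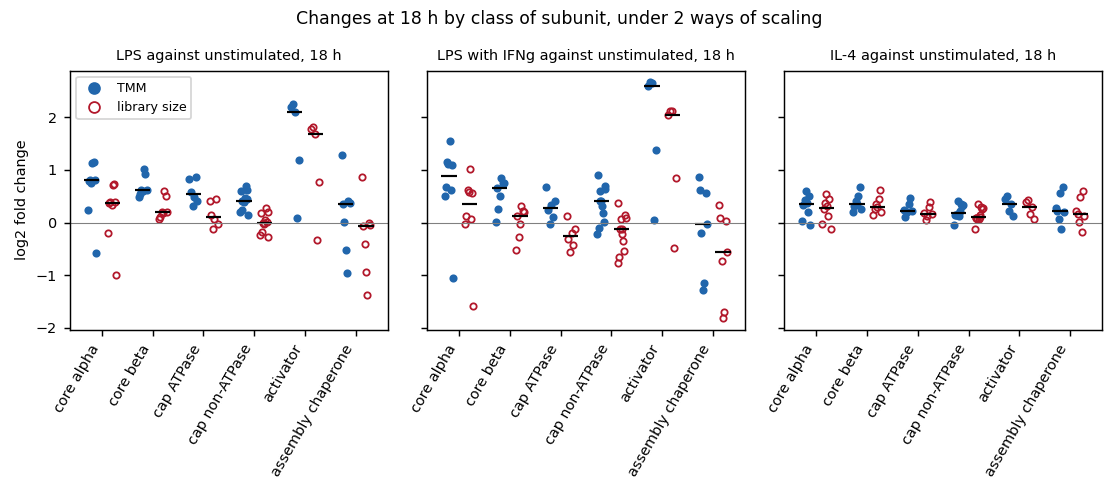
Log2 changes at 18 h (y axis) of each gene by class (x axis) against unstimulated cells, for LPS, LPS with IFNg and IL-4, with filled points for TMM scaling, open points for library-size scaling and bars for the class median. The activator medians, with the Psme2 copy Psme2b counted, stay above 1.6 under both scalings in the LPS groups, while the cap ATPases go from 0.29 to -0.25 in LPS with IFNg.

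Set directly against LPS at 18 h, LPS with IFNg gave changes in both directions within the complex. As the LPS dose of each group is not known, added IFNg and a difference in dose cannot be told apart here. The counts were 13 higher and 12 lower of 46 (28.3% and 26.1%), where 24% of all genes were called higher and 23.4% lower, so the number of calls was near that of genes in general. By class, 5 of 8 alpha subunits were higher and 1 lower, while 0 of 7 beta subunits were higher and 2 lower, and 0 of 6 cap ATPases were higher and 3 lower. At an unadjusted p below 0.05 the beta subunits and cap ATPases still counted 0 higher, and DESeq2 called 13 and 12 of the 46, where it called 22.4% and 22% of all genes. Of the other cap subunits 3 were higher and 4 lower, and 3 of 5 activators were higher. Without LPS replicate 2, the library that stood apart, the higher calls numbered 15 and the lower 12. Without LPS replicate 3 the lower calls numbered 19 and the higher 9. Library-size scaling gave 21 lower and 9 higher, where 30.6% and 18.2% of all genes were called.

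Psmf1 had the widest rise in LPS with IFNg against LPS, 0.97 (SE 0.09, adjusted p = 4.40e-10, 1.96-fold), and its libraries did not overlap those of LPS alone. Among the activators the changes were 0.39 for Psme1 (SE 0.08, adjusted p = 3.00e-04), 0.42 for Psme2 (SE 0.09, adjusted p = 2.15e-04) and 0.54 for Psme2b (SE 0.10, adjusted p = 6.56e-05). Psme4 was at 0.19 (SE 0.08, adjusted p = 0.051) and was called higher in DESeq2, under median-of-ratios scaling, with the replicate block (0.19 in each) and without LPS replicate 1 (0.23). Psme3 was at -0.04 (SE 0.06, adjusted p = 0.673). Psme1 and Psme2 were thus above their level in LPS alone, and Psmf1 rose from a level in LPS whose difference from unstimulated cells had not been called. Psmd8, a subunit of the cap's lid, had 232, 280 and 229 CPM in LPS and 353, 350 and 329 with IFNg (0.48, SE 0.07, adjusted p = 2.82e-06). Psma5 went from 155, 194 and 148 CPM to 221, 228 and 216 (0.42, SE 0.10, adjusted p = 5.17e-04).

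The widest fall was that of Psmc5, an ATPase of the cap's base, which had 152, 186 and 143 CPM in LPS and 94.7, 90.1 and 97.7 with IFNg (-0.77, SE 0.09, adjusted p = 2.15e-08). Its unstimulated libraries stood at 88.6, 93.4 and 81.2 CPM, so under TMM scaling the level with IFNg was near that of cells without a stimulus. Under library-size scaling it was lower, at 75.7, 72.0 and 79.2 CPM against 104, 108 and 93.9 in unstimulated cells, without overlap. Psma6 fell from 210, 275 and 202 CPM to 155, 166 and 152 (-0.54, SE 0.09, adjusted p = 2.03e-05), the opposite direction to 5 other alpha subunits. Psmd4, a ubiquitin receptor of the cap, fell from 121, 139 and 111 CPM to 90.2, 89.5 and 80.5 (-0.51, SE 0.08, adjusted p = 6.61e-06). Psmg1 changed by -0.75 (SE 0.21, adjusted p = 0.00433). Psmb5, Psmb6 and Psmb7, at -0.17, -0.17 and 0.12, were not called (adjusted p = 0.16, 0.127 and 0.27). They depended on single libraries and scaling: Psmb5 was called lower without LPS replicate 3 (-0.26), Psmb6 without LPS replicate 1 or 3 (-0.26 each), and Psmb7 was called higher without LPS replicate 2 (0.23).

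**Figure D4:**
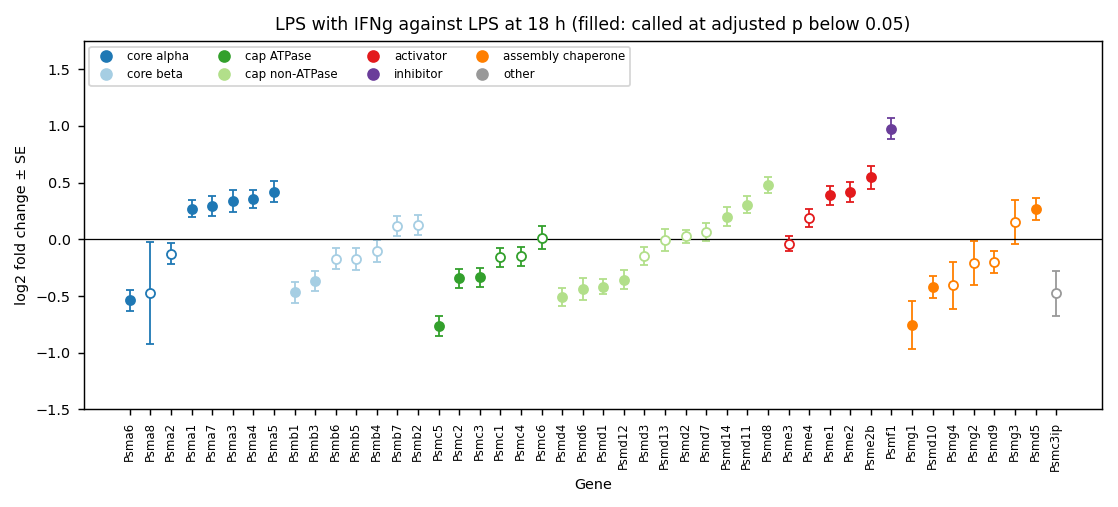
Log2 change with SE (y axis) of each of the 46 genes (x axis, grouped and colored by class) in LPS with IFNg against LPS at 18 h, filled where called. Psmf1 is highest at 0.97 and Psmc5 lowest at -0.77, and Psma6 at -0.54 stands below the other called alpha subunits.

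IL-4 for 18 h raised core, cap and activator genes, and no gene of the 46 was called lower. The counts were 25 higher and 0 lower (54.3% higher), where 19% of all genes were called higher and 20.1% lower. At an unadjusted p below 0.05 there were 31 higher and 0 lower, and DESeq2 called 24 and 0, where it called 17.1% and 18.5% of all genes. The median log2 change was 0.36 for the core (11 of 15 higher), 0.21 for the cap (8 of 17), 0.36 for activators (3 of 5) and 0.23 for assembly chaperones (3 of 7). Without IL-4 replicate 2, the library that stood apart, 16 genes were called. The share of all genes called in that fit was not counted, so whether the drop is particular to these genes was not tested. Library-size scaling, under which the median of all genes was -0.07, gave 21 higher, where 15.3% of all genes were called higher and 24.1% lower.

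Psmb6 showed the widest change with IL-4, from 149, 143 and 140 CPM to 218, 260 and 213 (0.68, SE 0.09, adjusted p = 8.86e-07). The chaperone Psmg3 was at 9.14, 8.50 and 8.15 CPM against 10.1, 17.8 and 12.4 (0.67, SE 0.19, adjusted p = 0.00531), a call that was lost without IL-4 replicate 2 (0.39). Psma4 rose from 98.4, 92.2 and 84.0 CPM to 135, 151 and 129 (0.60, SE 0.08, adjusted p = 5.21e-07). Thus the rise touched both rings of the core. Psmg1, which was lower in both LPS groups, rose with IL-4 from 12.0, 14.5 and 9.40 CPM to 16.5, 19.5 and 16.5 (0.55, SE 0.15, adjusted p = 0.00346). Psmb5 had 105, 143 and 118 CPM with IL-4 (0.50, SE 0.10, adjusted p = 2.33e-04). Psmb7 had 108, 131 and 108 (0.26, SE 0.09, adjusted p = 0.0167), a call that was lost without IL-4 replicate 2 (0.16) or unstimulated replicate 3 (0.24) and under library-size scaling (0.20). Of the immune counterparts only Psmb10 was called (1.08, SE 0.10, adjusted p = 1.05e-09), with Psmb8 at 0.22 and Psmb9 at -0.04.

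Among the activators Psme3 was called with IL-4 and not with LPS or with LPS and IFNg, and the difference between stimuli was not tested. It had 118, 122 and 118 CPM against 91.4, 99.8 and 87.5 in unstimulated cells, without overlap (0.36, SE 0.06, adjusted p = 2.79e-05). Psme1 had 111, 128 and 116 CPM (0.45, SE 0.09, adjusted p = 1.97e-04) and Psme2 had 139, 172 and 145 (0.50, SE 0.09, adjusted p = 9.23e-05). These 2 were above every unstimulated library but far below their level in LPS. Psme4 (0.13, SE 0.08) and Psmf1 (-0.07, SE 0.10) were not called (adjusted p = 0.233 and 0.599). The 3 stimuli share their unstimulated libraries, so their changes are not independent.

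At 1 h few changes were called. With LPS 6 of the 46 genes were higher and 0 lower (13.0%), where 10.8% of all genes were called higher and 11.4% lower. With LPS and IFNg 5 were higher and 0 lower (10.9%), where 14.7% of all genes were called higher and 14.7% lower. These shares of higher calls were near those of all genes. At an unadjusted p below 0.05 there were 1 lower with LPS and 1 with LPS and IFNg, and DESeq2 called 0 lower in each, where it called 9.45% and 13.2% of all genes lower. Under library-size scaling, where the median of all genes was -0.19 and -0.25, 1 gene was higher and 4 lower with LPS, where 7.01% of all genes were called higher and 27.8% lower. With LPS and IFNg that scaling gave 2 higher and 15 lower, where 8.52% and 41.2% of all genes were called. Without LPS replicate 1 the higher calls with LPS fell to 3, and they were 10 without the 2 libraries that stood apart at 18 h, which enter the shared estimate of spread. For LPS with IFNg they fell to 3 without unstimulated replicate 1 or without LPS with IFNg replicate 1 or 3.

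Psmd10 showed the widest called change at 1 h with either stimulus. It had 17.4, 19.1 and 17.8 CPM in unstimulated cells, 26.9, 27.6 and 26.5 with LPS, and 25, 28.3 and 30.5 with LPS and IFNg. The groups did not overlap, and the changes were 0.58 (SE 0.11, adjusted p = 2.01e-04) and 0.62 (SE 0.11, adjusted p = 3.08e-05), called under library-size scaling too (0.39 and 0.36). Psme2 had 95.1, 105 and 92.9 CPM in unstimulated cells, 136, 121 and 120 with LPS (0.36, SE 0.10, adjusted p = 0.00574), and 138, 135 and 140 with LPS and IFNg (0.49, SE 0.10, adjusted p = 1.44e-04). Its call with LPS was lost without LPS replicate 1 (0.29) and under library-size scaling (0.17). Psme1 was at 0.22 with LPS (adjusted p = 0.111) and at 0.26 with LPS and IFNg (SE 0.09, adjusted p = 0.0329), a call that was lost under library-size scaling and without any of 4 libraries, replicates 2 and 3 of the unstimulated cells (0.27 and 0.22) and replicates 1 and 3 of LPS with IFNg (0.23 and 0.26).

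Psmb6 and Psmd8 were the other genes called with both stimuli at 1 h. Psmb6 had 148, 153 and 162 CPM in unstimulated cells, 210, 206 and 196 with LPS (0.40, SE 0.09, adjusted p = 0.00164), and 192, 175 and 185 with LPS and IFNg (0.25, SE 0.09, adjusted p = 0.041). Psmd8 had 233, 248 and 246 CPM, then 317, 307 and 281 (0.32, SE 0.07, adjusted p = 0.00143) and 293, 277 and 286 (0.24, SE 0.07, adjusted p = 0.0129). Their groups did not overlap, but neither gene was called under library-size scaling, which left them at -0.01 and -0.03 with LPS and IFNg. The calls with LPS and IFNg were also lost without unstimulated replicate 1 or LPS with IFNg replicate 1 (0.23 and 0.22 for Psmb6, 0.21 and 0.22 for Psmd8), and that of Psmb6 also without unstimulated replicate 2 or LPS with IFNg replicate 3 (0.25 each). Psma6 and Psmb4 were called with LPS only. Psma6 had 89.3, 110 and 99.7 CPM in unstimulated cells and 128, 128 and 121 with LPS (0.34, SE 0.10, adjusted p = 0.0125), and the call was lost without LPS replicate 1 (0.31) or unstimulated replicate 1 (0.25). Psmb4 (0.27, SE 0.10, adjusted p = 0.0497) lost its call without any of the 6 libraries except unstimulated replicate 2, at 0.23 to 0.30, and Psma6 and Psmb4 were not called under library-size scaling (0.15 and 0.08).

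LPS with IFNg against LPS at 1 h gave 1 called change among the 46 genes, where 6.52% of all genes were called higher and 5.25% lower. Here too the LPS dose of each group is not known. Psma6 was lower, at 98.9, 92.4 and 101 CPM against 128, 128 and 121 in LPS (-0.37, SE 0.10, adjusted p = 0.0107), as it was at 18 h. The call was lost without LPS replicate 1 (-0.34) or LPS with IFNg replicate 2 (-0.33). No gene was called higher, at an unadjusted p below 0.05 either (0 genes), and DESeq2 called 0 higher and 1 lower, where it called 5.84% and 5.25% of all genes. Library-size scaling gave the same counts, where 5.38% and 7.92% of all genes were called. IL-4 for 1 h gave no call in the 46 genes, where 3.22% of all genes were called higher and 3.27% lower. At an unadjusted p below 0.05 there were 3 higher and 0 lower, and DESeq2 called 0 in either direction, where it called 3.14% and 3.13% of all genes. Library-size scaling called 0 too, where 3.34% and 3.16% of all genes were called, and the fit with replicate number as a block called 1 higher. Psme1 and Psme2 were at 0.13 and 0.12 there (SE 0.09 and 0.10).

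Genes around the proteasome were read from 5 lists of 36 genes, without the immunoproteasome, of which 35 were tested, and from a list of 7 genes of MHC class I presentation. Of the 35 genes 19 were called higher and 7 lower in LPS at 18 h (54.3% and 20%, against 31.8% and 31.3% of all genes). In LPS with IFNg 21 were higher and 5 lower (60% and 14.3%, against 36.1% and 36.1%). In IL-4 9 were higher and 4 lower (25.7% and 11.4%, against 19% and 20.1%), a share of higher calls near that of all genes. Under library-size scaling the counts were 8 and 19 for LPS, 10 and 18 for LPS with IFNg, and 7 and 4 for IL-4, where 16.3% and 54.7%, 19.4% and 59.7%, and 15.3% and 24.1% of all genes were called higher and lower. Most calls in the LPS groups were thus lower under that scaling. Pomp, the maturation factor of the core, rose in all 3 groups at 18 h, by 0.76, 1.03 and 0.57 on the log2 scale. Adrm1, a ubiquitin receptor of the cap, rose with LPS (0.55) and with LPS and IFNg (0.40), though neither was called under library-size scaling (0.13 and -0.13). Sem1, a small cap subunit, was lower in LPS with IFNg than in LPS (-0.56). Of 10 proteins that bind the proteasome, 3 rose and 3 fell with LPS, a share near that of all genes in each direction, and 6 rose and 1 fell with LPS and IFNg. Under library-size scaling 0 rose and 7 fell, and 2 rose and 5 fell. Ecpas, a scaffold on the proteasome, rose by 0.46 (0.04 and not called under library-size scaling) and by 1.17, and Usp14, a deubiquitinase on the cap, fell by 0.71 and 0.87 in these groups and rose by 0.38 with IL-4.

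The ubiquitin genes differed among themselves. Ubb, a polyubiquitin gene, rose by 1.17 with LPS and by 1.29 with LPS and IFNg at 18 h on the log2 scale. Rps27a, which encodes ubiquitin joined to a ribosomal protein, fell by 0.60 and 1.65. Such genes have near-identical copies in the genome, and how reads with several alignments were counted is not given in the sources used here. In all, 3 of 6 ubiquitin and E1 genes rose and 2 fell with LPS, and 3 rose and 1 fell with LPS and IFNg. For the lists that follow too, these counts stand beside 31.8% and 31.3% of all genes called higher and lower with LPS and 36.1% in each direction with LPS and IFNg. Of 10 shuttle and segregase genes 5 rose and 2 fell with LPS, and 5 rose and 3 fell with LPS and IFNg, among them the shuttle Ubqln2 (-0.82 and -1.03). Under library-size scaling 0 of the 10 rose and 8 fell in each group. Nfe2l1 and Nfe2l2 are known to bind antioxidant elements. Of the list of 6 genes that holds them and genes around them, 5 rose in each LPS group. Keap1 rose by 0.85 and 1.36, Mafk by 0.69 and 1.83, and Mafg by 0.81 with LPS. At 1 h Nfe2l2 itself rose by 0.68 with LPS and by 0.90 with LPS and IFNg, and Ddi2, the protease known to release Nfe2l1, was lower (-0.81 and -0.62). With IL-4 at 1 h both Nfe2l2 and Ddi2 were called lower, so the fall of Ddi2 was not particular to LPS. The 7 genes of MHC class I presentation all rose in both LPS groups at 18 h, and all 7 were higher with IFNg than with LPS alone, where 24% of all genes were called higher. The same 7 were called under library-size scaling.

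Exons of some of these genes overlap other annotated genes. Opposite-strand overlap was found for Psma4, Psma5, Psmb7, Psmc3, Psmc3ip, Psmd1, Psmd3, Psmd9, Psmd13 and Psme1, and the strand setting of the counting is not given in the sources used here, so reads of the overlapping genes may be included in their counts. For Psme1 the overlap with Emc9 was 14 bases. Same-strand overlap was found for Psmb5 with Mir686 (109 bases), Psmd1 with Gm21972 (301), Psmg3 with Gm26938 (280) and Psme2b with 9930111J21Rik1 (41). How reads in these shared bases were counted is not given in the sources used here.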

How the data were processed

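The authors deposited unnormalized counts of reads for each Ensembl gene, with 1 file a library. The submitters' processing notes list deepTools, STAR, featureCounts and DESeq2 and the build GRCm38; versions, strand setting and filters are not given in the sources used here. Genes were named from GENCODE M21. Genes passing filterByExpr (minimum count 10; 12765 tested) entered edgeR 4.0.16 (R 4.3.3) with TMM scaling and a term for each of the 8 groups over all 24 libraries. Quasi-likelihood tests were two-sided, adjusted by Benjamini-Hochberg over all tested genes and called below 0.05, for 9 comparisons of groups and 3 interactions (the response at 18 h minus that at 1 h). Depth was 4181890 to 8122945 counts per library. On simulated counts for LPS at 18 h the fit recovered 16, 37 and 49 of 50 genes changed 1.25-fold, 1.5-fold and 2-fold. Of 162 calls 10 were false. For the LPS response at 18 h minus 1 h it recovered 4, 21 and 44 of 50, with 6 of 125 calls false. The genes changed were far fewer than those called in the data and were drawn from the better counted ones. These rates therefore need not hold for the data.

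Other settings tried were scaling by library size or by median of ratios, no filter, DESeq2 1.42.0, a replicate block, the fit without LPS 18 h replicate 2 and IL-4 18 h replicate 2, and leaving out each library in turn. The share of all genes called was counted only for the main fit, library-size scaling and DESeq2. The second transcript length was chosen after seeing the data. The labels do not say that replicate numbers pair libraries. Same-numbered libraries deviated together with correlations over 0.1 in all 3 pairs only for IL-4 against unstimulated cells at 1 h (0.133 to 0.231), so the blocked count is given beside that result. Weaker correlations occurred elsewhere. For LPS against unstimulated cells they were 0.029 to 0.177 at 1 h and 0.015 to 0.038 at 18 h. For LPS with IFNg against LPS they were 0.066 to 0.107 at 1 h and 0.058 to 0.163 at 18 h. In each of these comparisons all 3 libraries matched their own number best. For IL-4 at 18 h the correlations were -0.091 to 0.072, and 1 library did. The main fit does not model such a link. Fitted changes are given, in each comparison, for up to the 6 called genes with the largest rise and 4 with the largest fall, for Psme1 to Psme4, Psmf1 and Psmb5 to Psmb7 with their immune counterparts, and for up to 3 called genes of each other list. The genes, lists and rules were chosen with earlier results of these data known.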

Additional observations from a re-analysis of the deposited data

Results flagged for a closer look

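The results given here differ between the 2 times: the response to a stimulus at 18 h differed from that at 1 h by edgeR's interaction test, adjusted by Benjamini-Hochberg over all genes tested. For LPS the response was higher at 18 h for 32 of the 46 genes and lower for 1, where 27% of all genes were called higher and 27.2% lower. For LPS with IFNg it was higher for 27 and lower for 4, where 31.8% and 32.2% of all genes were called, and for IL-4 it was higher for 10 and lower for 0, where 10.1% and 11.4% were called. At an unadjusted p below 0.05 no gene was lower for IL-4 (0 genes), and DESeq2 called 6 higher and 0 lower there, where it called 8.71% of all genes higher and 10.3% lower. The IL-4 count was 4 to 6 without any one of 6 libraries: unstimulated 1 h replicate 2 (4), unstimulated 18 h replicates 1 and 3 (6 each), IL-4 1 h replicates 2 and 3 (5 and 6) and IL-4 18 h replicate 2 (4). The smallest of these counts is near the 10.1% of all genes called higher in the main fit. The share of all genes without those libraries was not counted.

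For LPS the response on the log2 scale was higher at 18 h by 1.98 for Psme1, 1.88 for Psme2 and 1.2 for Psme4. For LPS with IFNg it was higher by 2.32 for Psme1 and 2.17 for Psme2, by 1.27 for Psme4, and by 1.35 for the inhibitor Psmf1. Psmf1 differed by 0.41 for LPS, where its change at 18 h itself was not called. The active-site subunits Psmb5, Psmb6 and Psmb7 differed by 0.96, 0.52 and 0.40 for LPS and by 0.81, 0.50 and 0.55 for LPS with IFNg. For IL-4 the called differences among these genes were 0.37 for Psme2, 0.37 for Psme3, 0.41 for Psmb5 and 0.56 for Psmb6. These values are under TMM scaling. Under library-size scaling the median difference of all genes was -0.21 for LPS, -0.27 for LPS with IFNg and -0.07 for IL-4. The size of the smaller differences thus depended on the scaling.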

How the results depend on the processing

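Library-size scaling changed the most. It gave, higher and lower, 1 and 4 genes for LPS at 1 h, 20 and 10 for LPS at 18 h, 2 and 15 for LPS with IFNg at 1 h, 14 and 19 for LPS with IFNg at 18 h, and 21 lower for LPS with IFNg against LPS at 18 h. For unstimulated cells at 18 h against 1 h it gave 2 higher, where 7.82% and 5.33% of all genes were called. For the responses at 18 h minus 1 h it gave 19 and 3 for LPS (18.6% and 36.2% of all genes), 17 and 8 for LPS with IFNg (22.7% and 41.7%), and 5 higher for IL-4 (7.71%, and 13.9% lower), where median-of-ratios scaling and DESeq2 gave 6 (8.71% of all genes higher and 10.3% lower in DESeq2). It reversed single log2 changes: Vcp with LPS at 1 h (-0.0057), Psme3 and Psmf1 with LPS at 18 h (-0.32 and -0.22), Psmb6, Psmd8 and Psme1 with LPS and IFNg at 1 h (-0.0088, -0.026 and -0.0028), and Psme3 and Adrm1 with LPS and IFNg at 18 h (-0.48 and -0.13). Its construction, without a correction for the shift of all genes, accounts for a common offset; other causes were not tested. Without LPS 18 h replicate 2 and IL-4 18 h replicate 2 together, 10 genes were higher for LPS at 1 h, 1 was higher for IL-4 at 1 h, 1 was higher and 1 lower for unstimulated cells at 18 h against 1 h, and 2 were lower for the LPS response at 18 h minus 1 h; Psmb8 was at 0.1731 for LPS with IFNg against LPS at 18 h, with the sign reversed (-0.138 to 0.1732 without 1 library). With the replicate block 1 gene was higher for IL-4 at 1 h, and 1 was higher and 1 lower for unstimulated cells at 18 h against 1 h; the block moved no other count of these genes by over 1.5 times. Leaving out 1 library at a time gave these ranges, higher then lower: 3 to 7 and 0 to 0 for LPS at 1 h, 34 to 39 and 1 to 2 for LPS at 18 h, 3 to 5 and 0 to 1 for LPS with IFNg at 1 h, 30 to 33 and 3 to 4 for LPS with IFNg at 18 h, 16 to 30 and 0 to 0 for IL-4 at 18 h, 0 to 0 and 0 to 1 for LPS with IFNg against LPS at 1 h, 9 to 15 and 12 to 19 at 18 h, 0 to 1 and 0 to 0 for unstimulated cells, and 26 to 35 and 1 to 2, 24 to 27 and 3 to 4, and 4 to 11 and 0 to 0 for the responses to LPS, LPS with IFNg and IL-4 at 18 h minus 1 h. The cause of these changes was not tested. Counts in fits without a library stand without the share of all genes called, so a shift common to all genes is not set apart. Small changes can be missed, since 37 of 50 simulated 1.5-fold changes were recovered for LPS at 18 h. The part of depth in this was not tested.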
